A study of Ovis aries with 24 samples.

Results

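The respiratory chain genes of the ovine pituitary were taken as all rows of the count tables whose gene name is that of a subunit of complexes I to IV or of the ATP synthase, together with the COX assembly factors and the ATP synthase genes that the same name pattern matches. This gave 76 of 27054 rows. Of these, 64 are nuclear genes (24 of complex I, 3 of complex II, 6 of complex III, 18 of complex IV and 13 of the ATP synthase) and 12 are encoded by mitochondrial DNA (7 of complex I, 1 of complex III, 2 of complex IV and 2 of the ATP synthase). The row named COIII, the remaining core subunit of complex IV, does not match the pattern and is not counted among them.

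The respiratory chain passes electrons from NADH and succinate to oxygen through complexes I to IV in the inner mitochondrial membrane, and the ATP synthase uses the proton gradient so made to form ATP. Its complexes, apart from complex II, are mosaics: a few core subunits are transcribed in the mitochondrion itself, and the other subunits are nuclear genes whose products are imported. In hormone-secreting cells this ATP feeds hormone synthesis, granule filling and exocytosis.

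Pituitaries of ovariectomized ewes (breed Western white faced) were dispersed and cultured on plastic, and an adenovirus carrying green fluorescent protein (GFP), targeted to gonadotropes by its promoter, was added a day later. Gonadotropes secrete luteinizing and follicle-stimulating hormone. All 4 groups of 6 RNA-seq libraries had received the virus: sorted cells with 10 nM estradiol (E2) for 6 h, sorted cells with ethanol vehicle, unsorted anterior pituitary cells with E2, and unsorted cells with vehicle. The sources used here give neither the promoter nor the purity of the sort, nor whether unsorted cells also passed through the sorter, and enrichment and handling cannot be told apart. Whether libraries of 1 replicate number came from a common culture or animal is unstated, and the p-values measure the spread between these libraries, which may be partly technical.

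Total counts were 4185088 to 6189629 in the 12 libraries numbered 1 to 3 and 19216735 to 37042448 in the 12 numbered 4 to 6, and every group holds 3 of each. The 5 gonadotrope markers tested were all higher in sorted vehicle libraries (median log2 fold change 2.58), with a summed level of 2494 to 5635 CPM (counts scaled to library size) in sorted against 291.7 to 1324 CPM in unsorted vehicle libraries. Markers of the other hormone cells were higher as well (6 of 6, median 0.82), whereas of 9 fibroblast and pericyte markers 6 were lower and 1 was higher (median -2.71), with a summed level of 952.6 to 1961 CPM in sorted and 5679 to 13500 CPM in unsorted vehicle libraries. Of the muscle markers 5 of 8 were lower and 0 higher. Of 6 folliculostellate and stem cell markers 2 were higher and 4 lower, and of 8 endothelial markers 1 was higher and 6 lower. Of 6 immune cell markers 1 was higher and 2 lower, and of 7 cell cycle genes 1 was higher and 6 lower. The 7 immediate-early genes were all higher in sorted vehicle libraries (median 1.57). Over all genes tested in this comparison 32.5% were higher and 31.1% lower. The part that these other cell types, depth or handling play in the results below was not tested, and in such bulk libraries fewer cells of a type and less RNA per cell cannot be told apart.

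The first question is how the mitochondrially encoded genes compare between sorted and unsorted cells. Over all genes tested 63.6% were called with vehicle, 32.5% higher, and 65.7% with E2, 33.9% higher. Of the mitochondrially encoded genes 5 of 10 tested rose in sorted cells with vehicle and 5 of 11 with E2. The others tested were not called. Their summed share of all counts was 1.22 ± 0.52% (SD, n = 6) in sorted vehicle libraries (lowest 0.685%, median 1.05%, highest 2.18%), against 0.548 ± 0.286% in unsorted vehicle libraries (0.274%, 0.510% and 0.973%). With E2 it was 1.15 ± 0.52% in sorted libraries, against 0.549 ± 0.272% in unsorted libraries. The groups overlapped, because libraries 1 to 3 had larger shares than libraries 4 to 6 in every group, but the sorted library was the higher of all 6 same-numbered pairs with each treatment. The mean difference was 1.23 on the log2 scale with vehicle, a 2.34-fold higher share, and 1.12 with E2, a 2.17-fold higher share. A 2-sided exact sign-flip test over the 6 pairs gave p = 0.0313 for each, the smallest it can give, and 0.0625 after Benjamini-Hochberg adjustment over 10 tests, so neither passes 0.05 after adjustment. In replicates 1 to 3 the mean difference was 0.94 with vehicle and 0.98 with E2, and in replicates 4 to 6 it was 1.51 and 1.26.

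**Figure D1:**
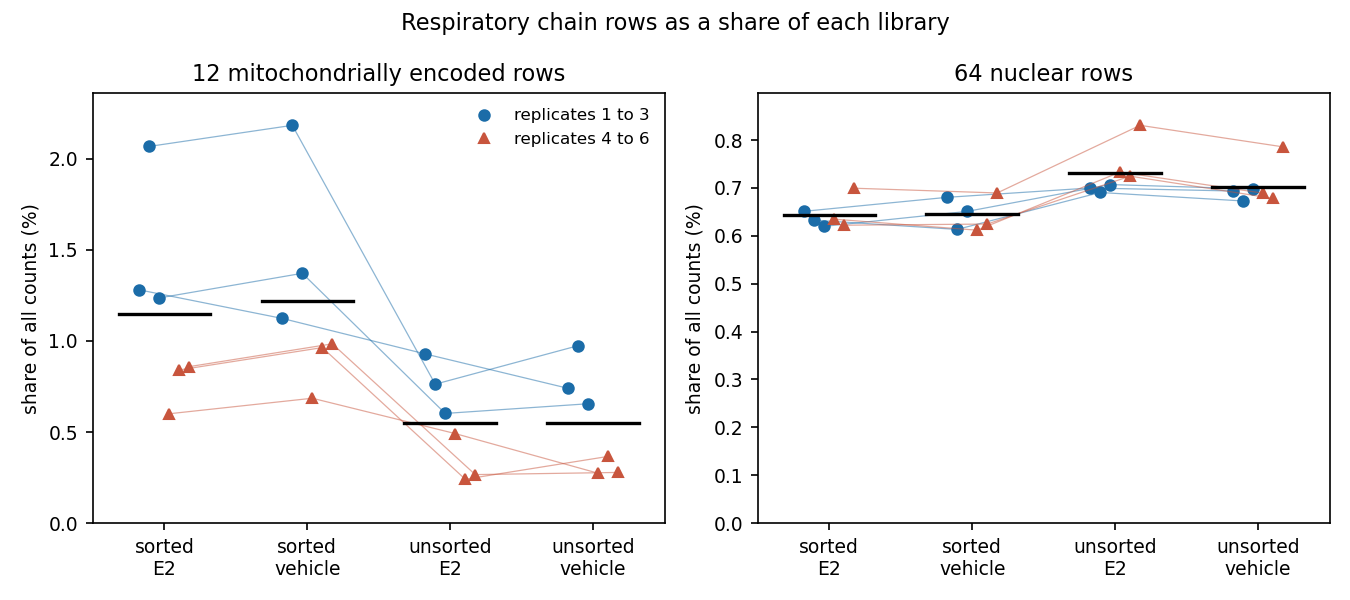
Share of all counts (%) taken by the 12 mitochondrially encoded rows (left) and the 64 nuclear rows (right) in each library, by group. Each point is a library, thin lines join libraries of the same replicate number and black bars are group means; the mitochondrially encoded share averages 1.15% and 1.22% in the sorted groups and 0.549% and 0.548% in the unsorted groups.

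This share rested on few rows. CYTB, COX1, ND5, ND6 and ATP6 together held 99.73% of the mitochondrially encoded counts, CYTB alone 42.04%. The other 7 rows, ND1, ND2, ND3, ND4, ND4L, COX2 and ATP8, had at most 395 counts in any library, although they belong to the same polycistronic transcripts. Shares of counts are not per length and do not rank the genes. Near-copies of mitochondrial DNA in the nuclear genome and overlapping neighbours (ATP6 with ATP8, and ND5 with ND6 on the opposite strand) leave these counts uncertain, since the sources used here state neither the strand setting nor the treatment of reads with several matches.

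In vehicle-treated cells, 5 of the 10 mitochondrially encoded genes tested rose in the sort (edgeR quasi-likelihood test with the replicate number as a block, called at a p under 0.05 after Benjamini-Hochberg adjustment across the whole table) and 0 fell. Over all 14468 genes, 63.6% were called, 32.5% higher and 31.1% lower, so a call is common in this comparison. The median log2 fold change of the 10 was 0.77, against 0.02 over all genes. With E2 the same 5 of 11 tested rose and 0 fell (median 0.72), where 65.7% of all 14545 genes were called, 33.9% higher and 31.8% lower.

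CYTB (ENSOARG00000000035), the cytochrome b of complex III, had 2883, 4546 and 9552 CPM (lowest, median and highest) in sorted vehicle libraries, against 990, 2025 and 3965 CPM in unsorted vehicle libraries. It rose by 1.34 ± 0.14 (log2 fold change ± SE; edgeR adjusted p = 1.94e-05) with vehicle and by 1.28 ± 0.23 (adjusted p = 0.00111) with E2. The sorted library was the higher in 6 of 6 pairs with each treatment, while the ranges of the groups overlapped.

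COX1 (ENSOARG00000000016), the catalytic core of complex IV, had 902, 1882 and 4729 CPM in sorted vehicle libraries, against 397, 845 and 1638 CPM in unsorted vehicle libraries. Its rise was 1.23 ± 0.09 (edgeR adjusted p = 1.11e-06) with vehicle and 1.04 ± 0.18 (adjusted p = 0.000935) with E2. ATP6 (ENSOARG00000000022), part of the proton channel of the ATP synthase, had 557, 852 and 1842 CPM in sorted vehicle libraries, against 259, 469 and 733 CPM in unsorted vehicle libraries. It rose by 0.97 ± 0.10 (adjusted p = 9.11e-06) with vehicle and 0.81 ± 0.20 (adjusted p = 0.00822) with E2, in 6 of 6 pairs with vehicle and 5 of 6 with E2. Without the block the E2 calls of COX1 (adjusted p = 0.0753) and ATP6 (adjusted p = 0.0871) were lost.

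ND5 (ENSOARG00000000032), a proton-pumping subunit of complex I, had 1768, 2414 and 4693 CPM in sorted vehicle libraries, against 682, 1232 and 2141 CPM in unsorted vehicle libraries. It rose by 1.16 ± 0.18 (edgeR adjusted p = 0.000432), and its antisense neighbour ND6 (ENSOARG00000000033), also of complex I, by 1.26 ± 0.20 (adjusted p = 0.000701). With E2 the rises were 0.97 ± 0.24 for ND5 (adjusted p = 0.00805) and 1.00 ± 0.25 for ND6 (adjusted p = 0.0102). For CYTB, ND5 and ND6 the sort effect with vehicle was larger in replicates 4 to 6 than in replicates 1 to 3, by 0.63, 0.76 and 0.82 on the log2 scale (interaction term, adjusted p = 0.0368, 0.0424 and 0.0403), where 10.3% of all genes differed between the sets. With E2 the same differences, 0.44, 0.49 and 0.54, did not pass (adjusted p = 0.573, 0.536 and 0.487).

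**Figure D2:**
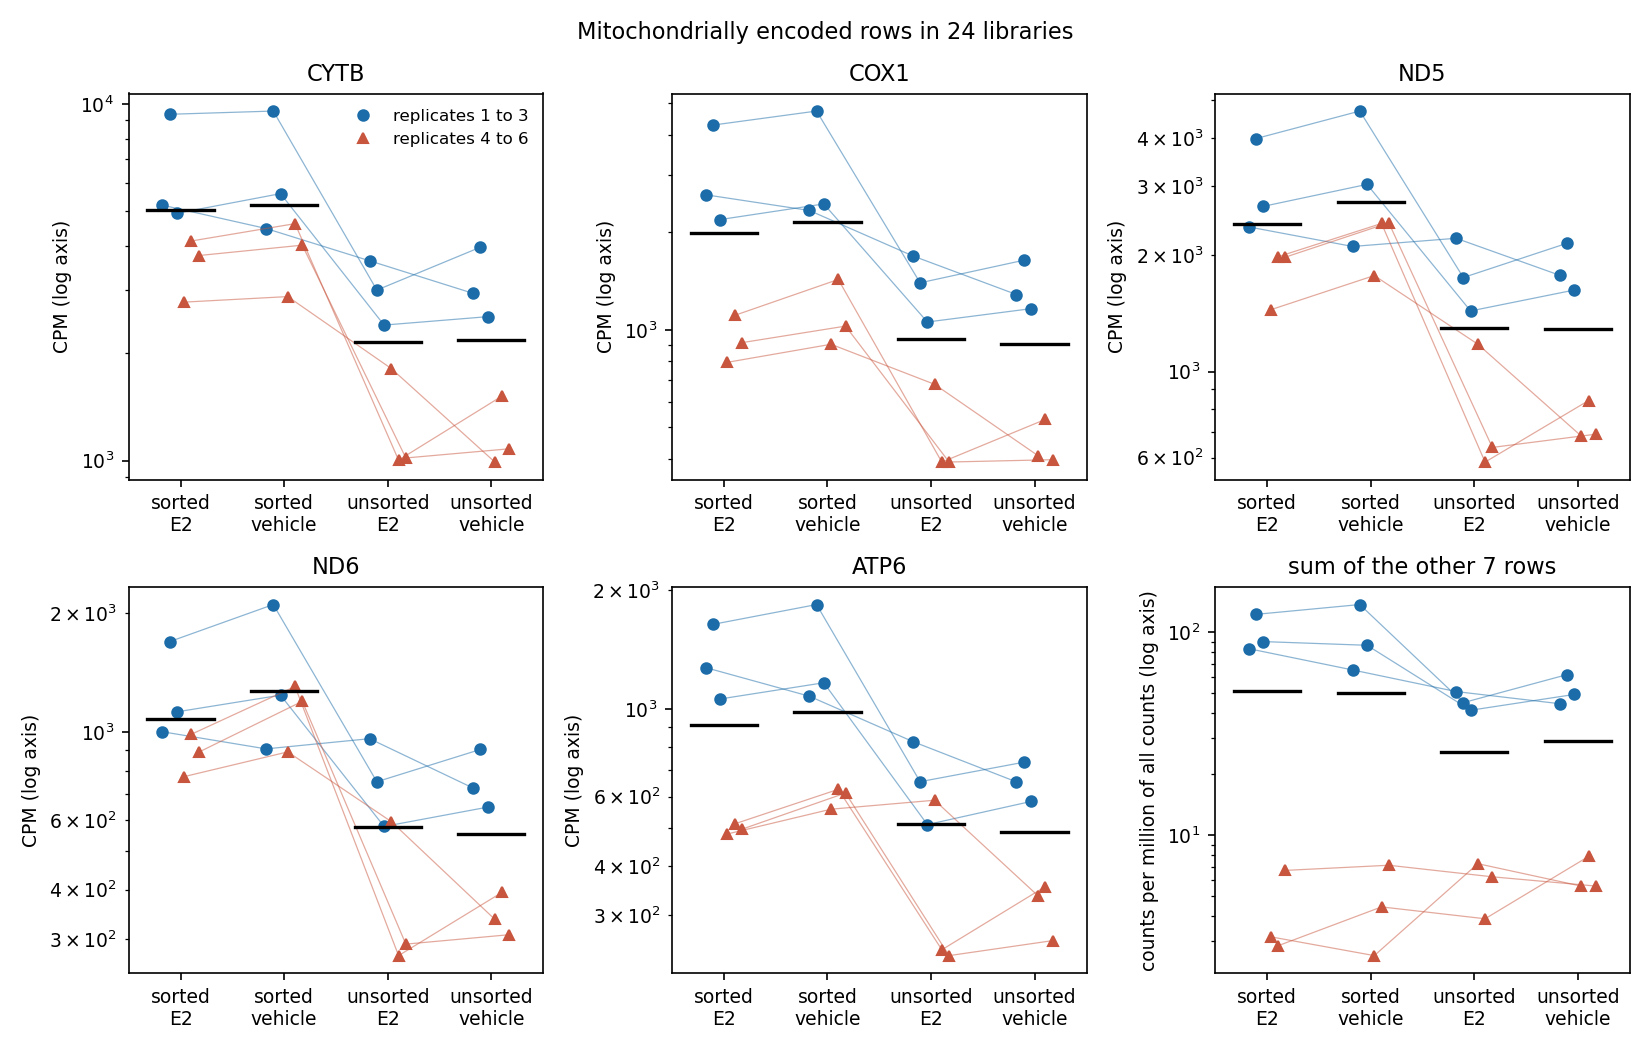
Level of each of the 5 most counted mitochondrially encoded rows (CPM, log axis) and the summed level of the other 7 (CPM of all counts, log axis) in 24 libraries, by group; bars are arithmetic means and lines join equal replicate numbers. The sorted libraries lie above their same-numbered unsorted libraries for CYTB, COX1, ND5 and ND6, and the sum of the other 7 rows is higher in replicates 1 to 3 than in 4 to 6.

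Of the 7 scarcely counted rows, 6 averaged higher CPM in replicates 1 to 3 than in 4 to 6 by more than the abundant CYTB did, in every group; ATP8, on at most 8 counts, overlapped between the sets. In sorted vehicle libraries COX2, the copper-binding subunit that receives electrons from cytochrome c, averaged 31.3 CPM in replicates 1 to 3 and 1.49 CPM in replicates 4 to 6, a 21.0-fold difference. ND4 was 18.9-fold and ND1 35.2-fold higher in replicates 1 to 3 of the same group. In unsorted vehicle libraries the ratios were 9.91 for COX2, 8.92 for ND4 and 5.74 for ND1. CYTB by comparison averaged 6543 CPM and 3839 CPM in the same sets of sorted vehicle libraries. The abundant COX1 differed more than CYTB, 2.83-fold in sorted and 3.06-fold in unsorted vehicle libraries. In the unsorted vehicle libraries the scarce ND2 differed by no more than that, 3.07-fold. The COIII row behaved like COX2, with 29.1 CPM in replicates 1 to 3 and 0.510 CPM in replicates 4 to 6 of the sorted vehicle group.

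Within the replicate sets the sort effect of these rows took different values. With vehicle, COX2 was 0.60, ND4 1.10, ND3 1.27 and ND1 0.90 higher in sorted cells (log2 fold change) within replicates 1 to 3, and -0.49, -0.05, -0.68 and -1.69 within replicates 4 to 6. The difference between the sets passed the test for ND1 (-2.60 ± 0.53, edgeR adjusted p = 0.00648), ND4L (-2.16 ± 0.64, adjusted p = 0.0467) and ND3 (-1.99 ± 0.52, adjusted p = 0.0256) with vehicle, and for ND2 (-3.06 ± 0.78, adjusted p = 0.0363), ND4L (-2.70 ± 0.68, adjusted p = 0.0344) and COX2 (-1.40 ± 0.31, adjusted p = 0.0189) with E2. It did not pass for ND4 with vehicle (adjusted p = 0.0737) or E2 (adjusted p = 0.0919), nor for COX2 with vehicle (adjusted p = 0.061). Over all 6 pairs none of the 7 rows was called in either sort comparison. ATP8 had at most 8 counts and was never tested, and ND2 was too low to test in the vehicle sort and in unsorted cells with E2.

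The nuclear genes of the chain did not move with the mitochondrially encoded ones. Of 61 tested with vehicle, 10 rose and 17 fell in sorted cells, a share of 44.3% called against 63.6% of all genes, with a median log2 fold change of -0.07. With E2, 6 rose and 27 fell, 54.1% against 65.7%, with a median of -0.13. Between the treatments, which use separate libraries, 16 genes fell and 6 rose in both, 4 rose and 1 fell with vehicle alone, 11 fell with E2 alone, and 56 of 61 had the same sign. The sort effect itself differed between treatments for 0 members by the interaction term. Without the replicate block 6 genes rose with vehicle, and 16 fell with E2. Calls over all genes also went down without it, from 9198 to 7267 with vehicle and from 9555 to 7533 with E2. Their summed share of counts was 0.645 ± 0.034% in sorted vehicle libraries, against 0.703 ± 0.042% in unsorted vehicle libraries. It was 0.643 ± 0.030% in sorted E2 libraries, against 0.731 ± 0.051% in unsorted E2 libraries. The sorted library had the smaller share in 6 of 6 pairs each time (mean log2 difference -0.123 with vehicle and -0.183 with E2, exact sign-flip p = 0.0313, 0.0625 after adjustment over 10 tests). When the 10 most counted genes, prolactin foremost, were left out of the totals, the differences were -0.0211 with vehicle (exact sign-flip p = 0.531) and -0.1028 with E2 (exact sign-flip p = 0.0625).

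**Figure D3:**
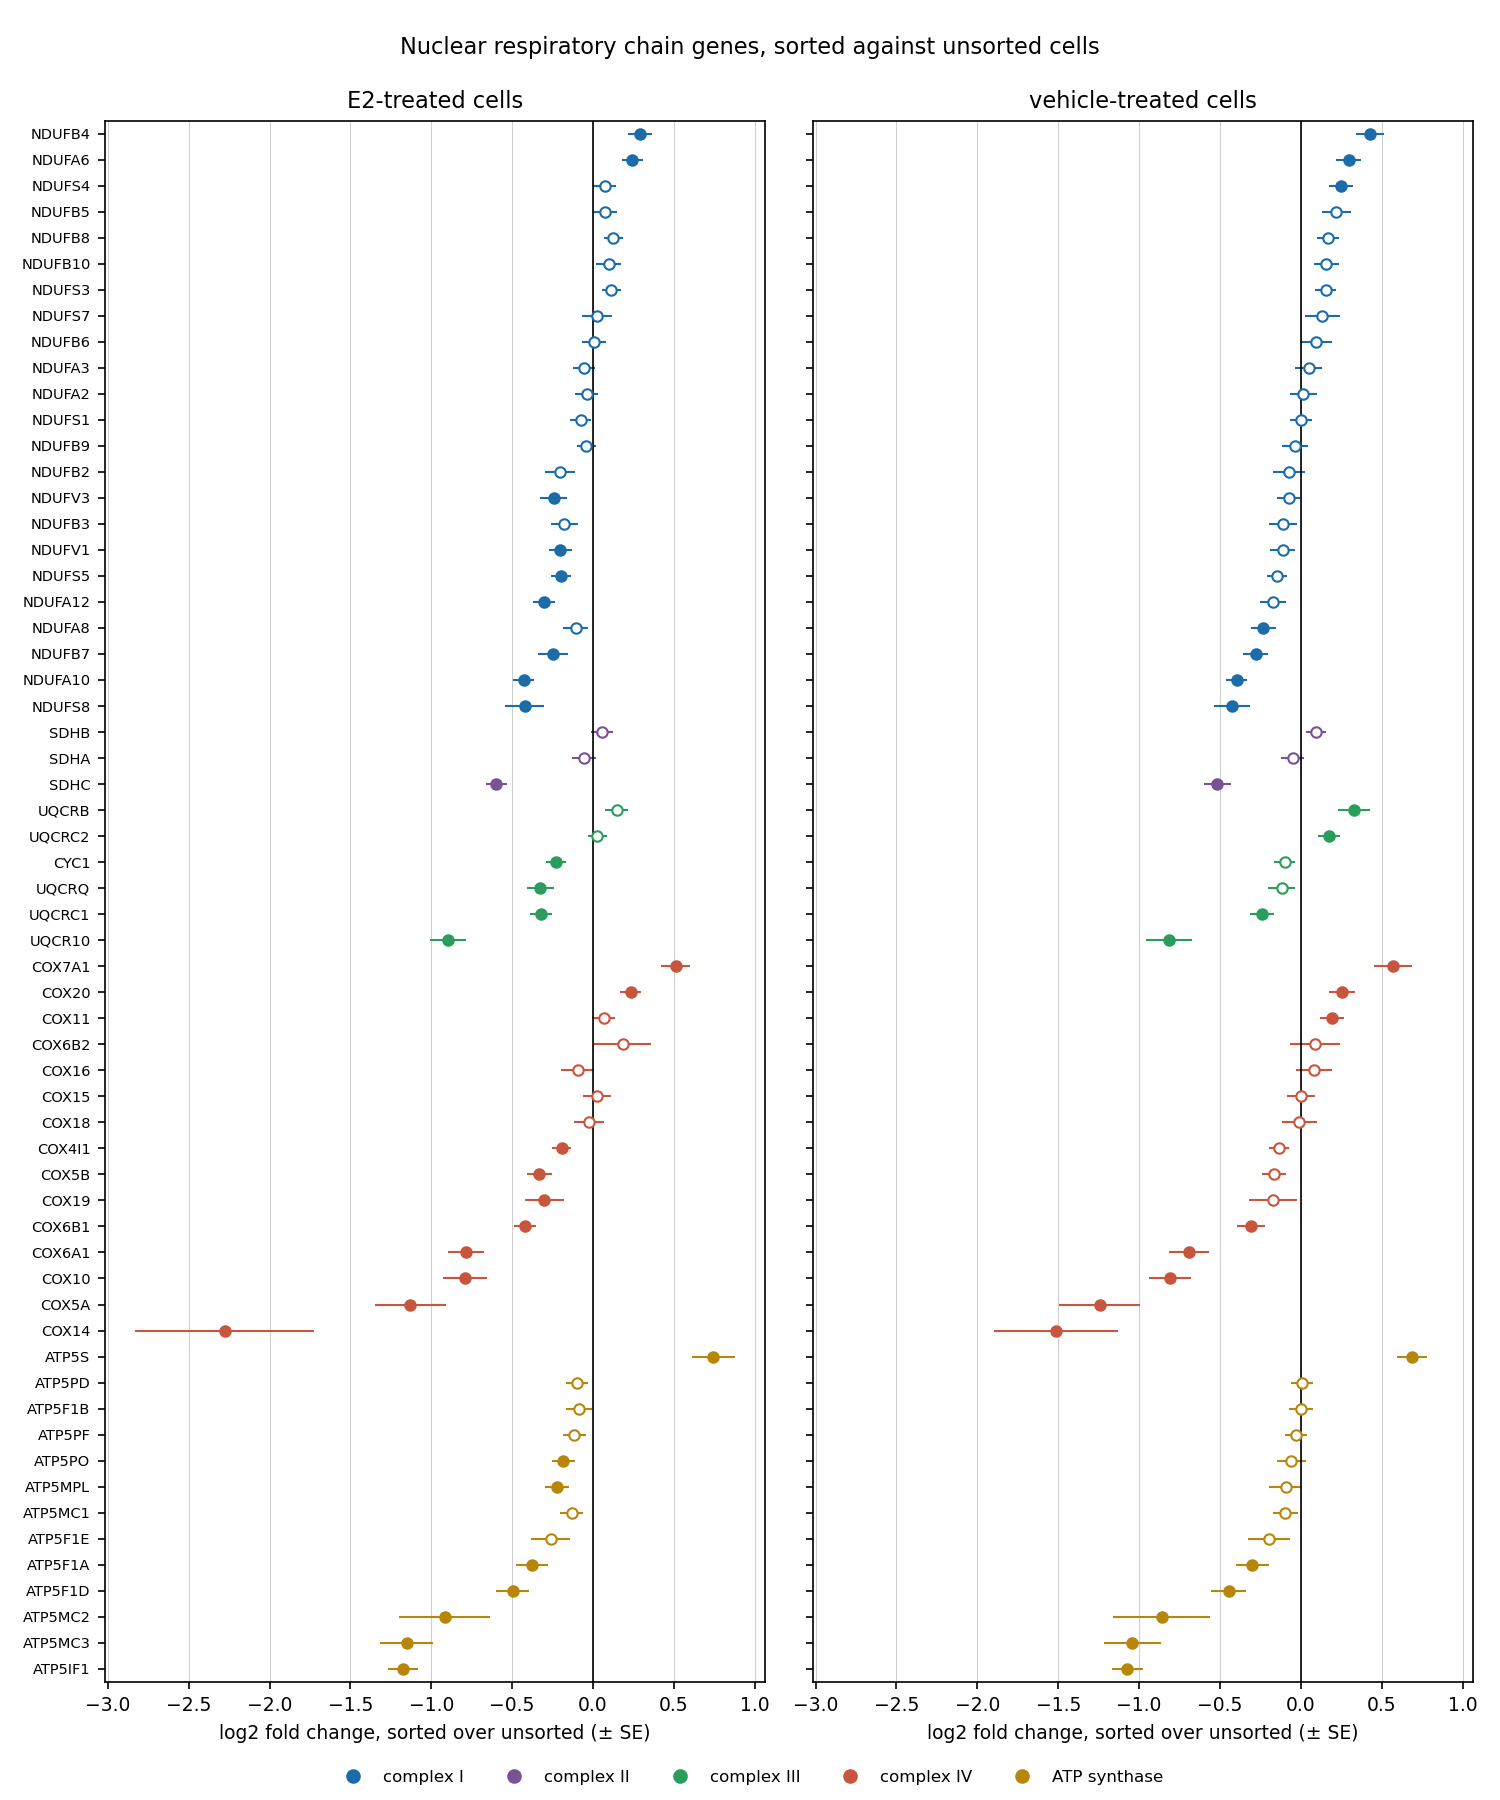
Log2 fold change of sorted over unsorted cells (± SE, edgeR with the replicate block) for 60 of the 61 nuclear genes tested, by complex, with E2 (left) and vehicle (right). Filled points passed an adjusted p of 0.05; the largest falls are in complex IV and the ATP synthase, down to -2.28 with E2 and -1.52 with vehicle for COX14.

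Complex I, the NADH dehydrogenase, had the smallest share of calls among complexes with more than 3 genes. With vehicle 4 of 24 genes rose and 4 fell (median 0.01), and with E2 3 rose and 7 fell (median -0.05). The shares called were 33.3% and 41.7%, against 63.6% and 65.7% of all genes. The accessory subunits NDUFB4 (0.43 ± 0.09, edgeR adjusted p = 0.00131), NDUFA6 (0.29 ± 0.08, adjusted p = 0.00715) and NDUFS4 (0.25 ± 0.07, adjusted p = 0.0133) rose with vehicle. With E2 the rises of NDUFB4 (0.29) and NDUFA6 (0.24) were called and the value of NDUFS4 (0.07) was not. The vehicle call of NDUFS4 was lost without replicate 4 or 5.

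The falls in complex I were small. NDUFA10, an accessory subunit of the matrix side, had 54.1, 58.2 and 71.0 CPM in sorted vehicle libraries, against 68.3, 79.6 and 89.3 CPM in unsorted vehicle libraries. It fell by 0.40 ± 0.06 (edgeR adjusted p = 0.000307) with vehicle and by 0.43 ± 0.06 (adjusted p = 0.000173) with E2, in 6 of 6 pairs each. NDUFS8, a core subunit that carries iron-sulfur clusters, fell by 0.43 ± 0.11 (adjusted p = 0.00674) with vehicle and 0.42 ± 0.12 (adjusted p = 0.00964) with E2, in 5 of 6 pairs each, and both calls were lost without the block (adjusted p = 0.0947 and 0.168), the E2 call also without replicate 6. NDUFB7 and NDUFA8, accessory subunits, fell by 0.28 ± 0.08 (adjusted p = 0.0093) and 0.23 ± 0.08 (adjusted p = 0.0206) with vehicle. The NDUFA8 call was lost without replicate 4 or 6, and the NDUFB7 call without the block (adjusted p = 0.293).

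Complex II, the succinate dehydrogenase, is wholly nuclear, and SDHA, SDHB and SDHC had rows. SDHC (ENSOARG00000010008), one of its membrane anchors, had 39.7, 41.6 and 51.3 CPM in sorted vehicle libraries, against 53.4, 61.5 and 68.7 CPM in unsorted vehicle libraries. The groups did not overlap with either treatment, and the fall was 0.52 ± 0.08 (edgeR adjusted p = 0.000275) with vehicle and 0.60 ± 0.07 (adjusted p = 2.2e-05) with E2. The catalytic flavoprotein SDHA (-0.05) and the iron-sulfur subunit SDHB (0.09) were not called with vehicle.

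In complex III, the cytochrome bc1 complex, 2 of 6 genes rose and 2 fell with vehicle, and 0 rose and 4 fell with E2. The share called was 66.7% with each treatment, against 63.6% and 65.7% of all genes. UQCR10 (ENSOARG00000005560), a small accessory subunit, had 30.2, 32.1 and 44.8 CPM in sorted vehicle libraries, against 44.6, 62.6 and 75.3 CPM in unsorted vehicle libraries. It fell by 0.82 ± 0.14 (edgeR adjusted p = 0.000682) with vehicle and 0.90 ± 0.11 (adjusted p = 4.34e-05) with E2, in 6 of 6 pairs each. The core proteins differed from each other: UQCRC1 fell by 0.24 ± 0.07 with vehicle (adjusted p = 0.0151; not called when replicate 4 was left out), while UQCRC2 rose by 0.17 ± 0.07 (adjusted p = 0.0415; not called when any one of replicates 1 to 5 was left out). UQCRB, the ubiquinone-binding subunit, rose by 0.33 ± 0.10 with vehicle (adjusted p = 0.0132, and 0.12 without the block). With E2 neither UQCRB (0.15) nor UQCRC2 (0.03) was called, and UQCRQ (-0.33), UQCRC1 (-0.32) and the cytochrome c1 gene CYC1 (-0.23) fell.

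Complex IV, cytochrome c oxidase, held 15 tested genes, 7 subunits and 8 assembly factors. With vehicle 3 rose and 5 fell, and with E2 2 rose and 8 fell. The shares called were 53.3% and 66.7%, against 63.6% and 65.7% of all genes. COX5A (ENSOARG00000002812), a matrix-side subunit, had 5.27, 10.7 and 17.9 CPM in sorted vehicle libraries, against 20.7, 23.0 and 25.9 CPM in unsorted vehicle libraries. Every sorted library was below every unsorted one with each treatment. The fall was 1.24 ± 0.25 (edgeR adjusted p = 0.00245) with vehicle and 1.13 ± 0.22 (adjusted p = 0.00175) with E2. It was deeper in replicates 4 to 6, where sorted vehicle libraries averaged 6.47 CPM and unsorted ones 22.6 CPM, than in replicates 1 to 3, where they averaged 15.7 CPM when sorted and 23.7 CPM when not (difference of the sort effects -1.25 ± 0.21, adjusted p = 0.0016).

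COX6A1, the broadly expressed form of a regulatory subunit, had 96.7, 116 and 129 CPM in sorted vehicle libraries, against 154, 171 and 233 CPM in unsorted vehicle libraries. It fell by 0.69 ± 0.12 (edgeR adjusted p = 0.000738) with vehicle and 0.78 ± 0.11 (adjusted p = 0.000136) with E2, without overlap of the groups. COX6B1, a subunit on the cytochrome c side, fell by 0.31 ± 0.09 (adjusted p = 0.00854) and 0.42 ± 0.07 (adjusted p = 0.000323). COX7A1 (ENSOARG00000005289), known as the heart and muscle form of its subunit, went the other way. It had 14.7, 17.8 and 28.8 CPM in sorted vehicle libraries, against 7.67, 12.3 and 18.4 CPM in unsorted vehicle libraries. The increase was 0.57 ± 0.12 (adjusted p = 0.00148) with vehicle and 0.51 ± 0.09 (adjusted p = 0.000568) with E2. The E2 call was lost without the block (adjusted p = 0.057). Of 8 muscle markers tested 5 were lower and 0 higher in sorted cells with each treatment. Which cells carried the COX7A1 counts was not tested.

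Of the other tissue isoforms, the broadly expressed COX4I1 was not called with vehicle (-0.14 ± 0.06, edgeR adjusted p = 0.0797) and fell by 0.19 ± 0.06 (adjusted p = 0.0121) with E2. Its lung-enriched counterpart COX4I2 had at most 28 counts, the muscle form COX6A2 at most 7 and the testis form COX8C at most 1, and these were not tested. COX6B2, the testis form of COX6B1, had 4.78, 7.13 and 10.1 CPM in sorted vehicle libraries, against 4.33, 6.07 and 11.1 CPM in unsorted vehicle libraries (0.09 ± 0.16, not called). COX7A2, COX7B and COX8A are not analysed here.

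Among the assembly factors of complex IV, COX10 (ENSOARG00000016428), which makes the precursor of its heme A, had 4.95, 7.59 and 8.30 CPM in sorted vehicle libraries, against 11.03, 12.92 and 13.76 CPM in unsorted vehicle libraries. The groups did not overlap, and it fell by 0.81 ± 0.13 (edgeR adjusted p = 0.000267) with vehicle and 0.79 ± 0.14 (adjusted p = 0.000493) with E2. COX14, which binds newly made COX1, fell by 1.52 ± 0.38 (adjusted p = 0.00507) and 2.28 ± 0.55 (adjusted p = 0.005), on few counts: 4 to 10 in sorted vehicle libraries against 6 to 64 in unsorted vehicle libraries, and 0 to 9 in sorted E2 libraries against 7 to 71 in unsorted E2 libraries. When replicate 4, 5 or 6 was left out, COX14 was too low to test in either comparison. COX20, a chaperone of newly made COX2, rose by 0.25 ± 0.08 (adjusted p = 0.0153) with vehicle and 0.23 ± 0.07 (adjusted p = 0.00897) with E2, and COX11, which inserts copper, by 0.20 ± 0.07 (adjusted p = 0.0389) with vehicle. The COX11 call was lost when any 1 of the 6 replicate numbers was left out, and the vehicle call of COX20 without replicate 1, 4 or 5.

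For the ATP synthase, 1 of 13 genes rose and 5 fell with vehicle (median -0.10), and 1 rose and 7 fell with E2 (median -0.22). The shares called were 46.2% and 61.5%, against 63.6% and 65.7% of all genes. ATP5IF1 (ENSOARG00000003022), the inhibitor that blocks the enzyme from running backwards, had 22.8, 24.5 and 32.5 CPM in sorted vehicle libraries, against 45.9, 54.8 and 65.2 CPM in unsorted vehicle libraries. No sorted library reached an unsorted one with either treatment. The fall was 1.07 ± 0.10 (edgeR adjusted p = 3.42e-06) with vehicle and 1.18 ± 0.09 (adjusted p = 2.07e-06) with E2. It was of like size in the 2 replicate sets with vehicle, 1.02 lower in replicates 1 to 3 and 1.12 lower in replicates 4 to 6.

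Subunit c, which forms the rotating ring, is encoded by ATP5MC1, ATP5MC2 and ATP5MC3, whose mature proteins are the same. ATP5MC3 (ENSOARG00000000170) had 110, 149 and 175 CPM in sorted vehicle libraries, against 244, 299 and 388 CPM in unsorted vehicle libraries. It fell by 1.04 ± 0.18 (edgeR adjusted p = 0.00102) with vehicle and 1.15 ± 0.16 (adjusted p = 0.000324) with E2. ATP5MC2 fell by 0.86 ± 0.30 (adjusted p = 0.0446) and 0.92 ± 0.28 (adjusted p = 0.0274), calls that were lost without replicate 4, 5 or 6, and ATP5MC1 did not pass (-0.10 ± 0.08 and -0.13 ± 0.07). Similar copies of these genes can share reads, so the split between them is uncertain.

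The fall of ATP5MC2 stood almost wholly in 1 replicate set. In replicates 4 to 6 it averaged 41.7 CPM in sorted vehicle libraries, against 119 CPM in unsorted vehicle libraries. In replicates 1 to 3 it averaged 93.1 CPM in sorted vehicle libraries, against 104 CPM in unsorted vehicle libraries. The difference of the sort effects was -1.40 ± 0.12 (edgeR adjusted p = 1.57e-06) with vehicle and -1.32 ± 0.12 (adjusted p = 3.62e-05) with E2.

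**Figure D4:**
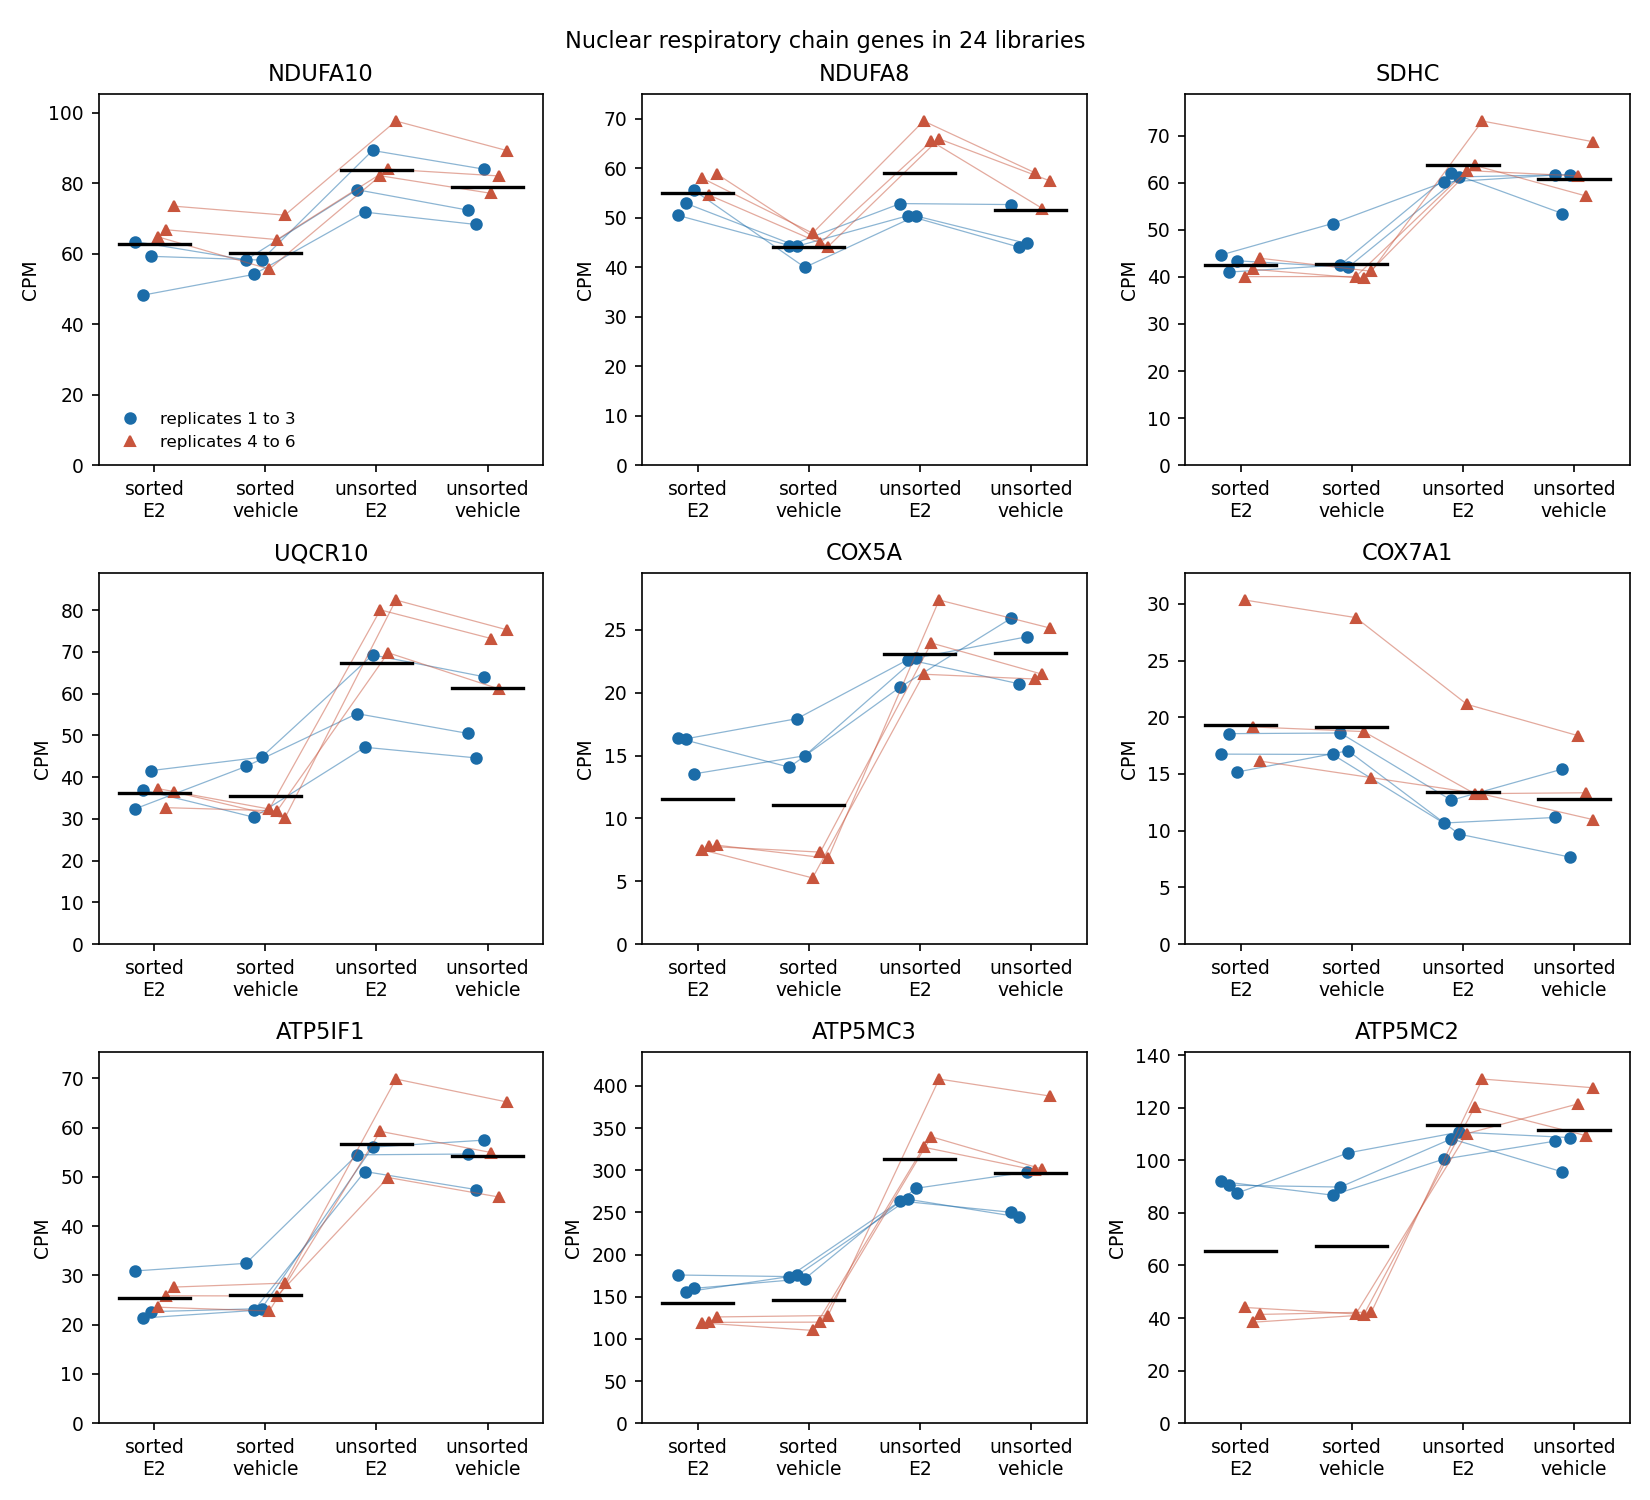
Level (CPM, axes from 0) of 9 nuclear genes in each library, by group; bars are means and lines join equal replicate numbers. Sorted libraries are higher than their same-numbered unsorted libraries for COX7A1 and lower for NDUFA10, SDHC, UQCR10, COX5A, ATP5IF1 and ATP5MC3; for ATP5MC2 and COX5A the sorted libraries of replicates 4 to 6 lie below those of replicates 1 to 3.

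That pattern was shared by other nuclear genes. In a test added after seeing the data, the sort effect with vehicle was lower in replicates 4 to 6 than in replicates 1 to 3 for 10 of 61 nuclear genes and higher for 0, where 6.87% of all genes were lower and 3.46% higher. The 10 were ATP5MC2, COX5A, ATP5MC3 (-0.90), UQCR10 (-0.75), ATP5F1E (-0.68), COX6A1 (-0.66), ATP5F1A (-0.52), NDUFS7 (-0.51), ATP5F1D (-0.50) and NDUFB2 (-0.47). With E2 it was lower for 7, which were all among these 10, where 7.61% of all genes differed, 2.19% higher and 5.42% lower. Depth and replicate number go together here, so which of them goes with the difference cannot be told apart.

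The remaining ATP synthase genes changed less. ATP5F1D, the delta subunit of the central stalk, fell by 0.45 ± 0.11 (edgeR adjusted p = 0.00366) with vehicle and 0.50 ± 0.10 (adjusted p = 0.0015) with E2. ATP5F1A, the alpha subunit of the catalytic head, had 538, 731 and 902 CPM in sorted vehicle libraries, against 773, 874 and 997 CPM in unsorted vehicle libraries. It fell by 0.30 ± 0.10 (adjusted p = 0.0258), but was not called when replicate 4, 5 or 6 was left out. ATP5S (ENSOARG00000020636), the coupling factor B gene, rose by 0.69 ± 0.09 (adjusted p = 8.41e-05) with vehicle and 0.74 ± 0.14 (adjusted p = 0.000683) with E2. It had 21.7, 25.2 and 30.3 CPM in sorted vehicle libraries, against 14.3, 16.2 and 17.4 CPM in unsorted vehicle libraries, which did not overlap.

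Other mitochondrial genes, on lists outside the chain, were counted in the same comparison, in which 32.5% of all genes rose and 31.1% fell. A list with shares near these shows nothing of its own. Of 64 mitochondrial ribosomal protein genes, 4 rose and 28 fell in the sort with vehicle (median -0.19), led by MRPL12 (-0.95) and MRPL37 (-0.69), and 2 rose and 30 fell with E2. Among 25 carrier, import and membrane genes 3 rose and 11 fell, the prohibitin gene PHB (-1.10) among the falls. Of 26 assembly factors outside the name pattern 5 rose and 9 fell, with NDUFAF6 at -1.13. The 22 genes of the tricarboxylic acid cycle and pyruvate entry split into 7 higher and 7 lower. Of 18 glycolysis genes 3 rose and 11 fell (median -0.39), with the enolase gene ENO1 at -1.05 and the glucose transporter gene SLC2A1 at -1.01, while PFKM, the muscle-type phosphofructokinase, rose by 1.05. Of 15 genes of mitochondrial RNA processing 3 rose and 4 fell, and of 15 of oxidant defence 2 rose and 5 fell.

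Of 18 biogenesis regulators 6 rose and 4 fell with vehicle, near or below the shares of all genes (32.5% higher, 31.1% lower). NRF1, a transcription factor of nuclear respiratory genes, was higher by 0.83 ± 0.09 in sorted vehicle cells, whereas POLRMT, the mitochondrial RNA polymerase, and TWNK, the mitochondrial helicase, had log2 fold changes of -0.88 and -0.46. Of 13 electron carrier genes, ubiquinone synthesis included, 5 rose and 1 fell, with COQ10A at 0.60 and PDSS1 at -0.79. Of 14 hypoxia response genes 5 rose and 7 fell.

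The second question is the response to E2. Among all 14334 genes tested in sorted cells 13.2% were called, 7.03% higher and 6.2% lower, a total of 1896 genes that was 196 without the replicate block. Of the nuclear respiratory chain genes 1 of 60 was called, NDUFA8, and of the 11 mitochondrially encoded ones 1, ND5. The median log2 fold change was -0.01 for the nuclear genes and -0.05 for the mitochondrially encoded ones, against 0.00 over all genes.

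NDUFA8 (ENSOARG00000014386), an accessory subunit of complex I on the intermembrane side, had 50.4, 55.0 and 58.8 CPM in sorted E2 libraries, against 40.0, 44.3 and 46.9 CPM in sorted vehicle libraries. Every E2 library was above every vehicle library. It rose by 0.32 ± 0.05 (edgeR adjusted p = 0.000161), by 0.31 within replicates 1 to 3 and by 0.33 within replicates 4 to 6, and it was called without the block too (adjusted p = 0.0339). In unsorted cells it had 50.3, 59.1 and 69.5 CPM with E2, against 44.0, 52.2 and 59.1 CPM with vehicle, higher in 6 of 6 pairs. That rise was 0.21 ± 0.05 (adjusted p = 0.0139), 0.12 within replicates 1 to 3 and 0.26 within replicates 4 to 6, and it was lost without the block or without replicate 4, 5 or 6. The rises in sorted and unsorted cells were not shown to differ by the test of the difference (0.13 ± 0.09, adjusted p = 1.0). With the replicate number blocked within the sorted and within the unsorted libraries, the difference was 0.11 ± 0.07 (edgeR adjusted p = 0.556).

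In RefSeq gene order (assembly ARS-UI_Ramb_v3.0) the protein-coding neighbours of NDUFA8 are MORN5 and TTLL11, looked up after its values had been seen. MORN5 averaged 11.4 ± 4.5 CPM in sorted E2 libraries and 8.14 ± 3.18 CPM in sorted vehicle libraries (SD, n = 6 each). It rose by 0.48 ± 0.10 (edgeR adjusted p = 0.00274) in sorted cells and was 0.24 ± 0.08 higher in unsorted cells without passing (adjusted p = 0.0794). TTLL11 was not called in sorted cells (0.00 ± 0.11, adjusted p = 0.994) or in unsorted cells (-0.02 ± 0.12, adjusted p = 0.975). Whether reads of MORN5 and NDUFA8 overlap was not tested.

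ND5 had 1444, 2168 and 3987 CPM in sorted E2 libraries, against 1768, 2414 and 4693 CPM in sorted vehicle libraries, lower in 5 of 6 pairs. It fell by 0.19 ± 0.05 (edgeR adjusted p = 0.0242). The call was lost without the block (adjusted p = 1.0) and without any one of replicates 2 to 6, and the value was -0.08 in replicates 1 to 3 and -0.30 in replicates 4 to 6. ND6 (-0.22, adjusted p = 0.0537), COX1 (-0.14, adjusted p = 0.0776) and ATP6 (-0.14, adjusted p = 0.164) lay on the same side without passing, also in 5 of 6 pairs each. The mitochondrially encoded share of counts was not shown to differ between E2 and vehicle in sorted cells (mean log2 difference -0.104, exact sign-flip p = 0.125) or in unsorted cells (0.005, p = 1.0).

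In unsorted cells 5.24% of 15083 genes were called with E2, 2.86% higher and 2.37% lower, a total of 790 genes that was 37 without the block. Of 61 nuclear respiratory chain genes 1 was called, NDUFA8, and of 10 mitochondrially encoded ones 0 (edgeR; 0 also at an unadjusted p under 0.05 and 0 with DESeq2). The nuclear genes leaned one way without passing: 56 of 61 fold changes were positive, against 6890 of 15083 over all genes. Their median was 0.08, against -0.01 over all genes. The 61 fold changes come from the same libraries and are not separate observations. The largest below NDUFA8 were those of UQCRB (0.16 ± 0.06, adjusted p = 0.204), COX14 (0.16 ± 0.18), COX18 (0.15 ± 0.08), NDUFA3 (0.14 ± 0.05, adjusted p = 0.158), UQCR10 (0.13 ± 0.04, adjusted p = 0.0974) and COX5B (0.13 ± 0.04, adjusted p = 0.0671). The nuclear share of counts was 0.731 ± 0.051% with E2 and 0.703 ± 0.042% with vehicle in unsorted libraries, larger in 6 of 6 pairs by 0.056 on the log2 scale (exact sign-flip p = 0.0313, 0.0625 after adjustment). In sorted libraries the mean difference was -0.004, with 3 pairs each way. Without pairing the unsorted difference gave p = 0.344 by an exact permutation test.

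**Figure D5:**
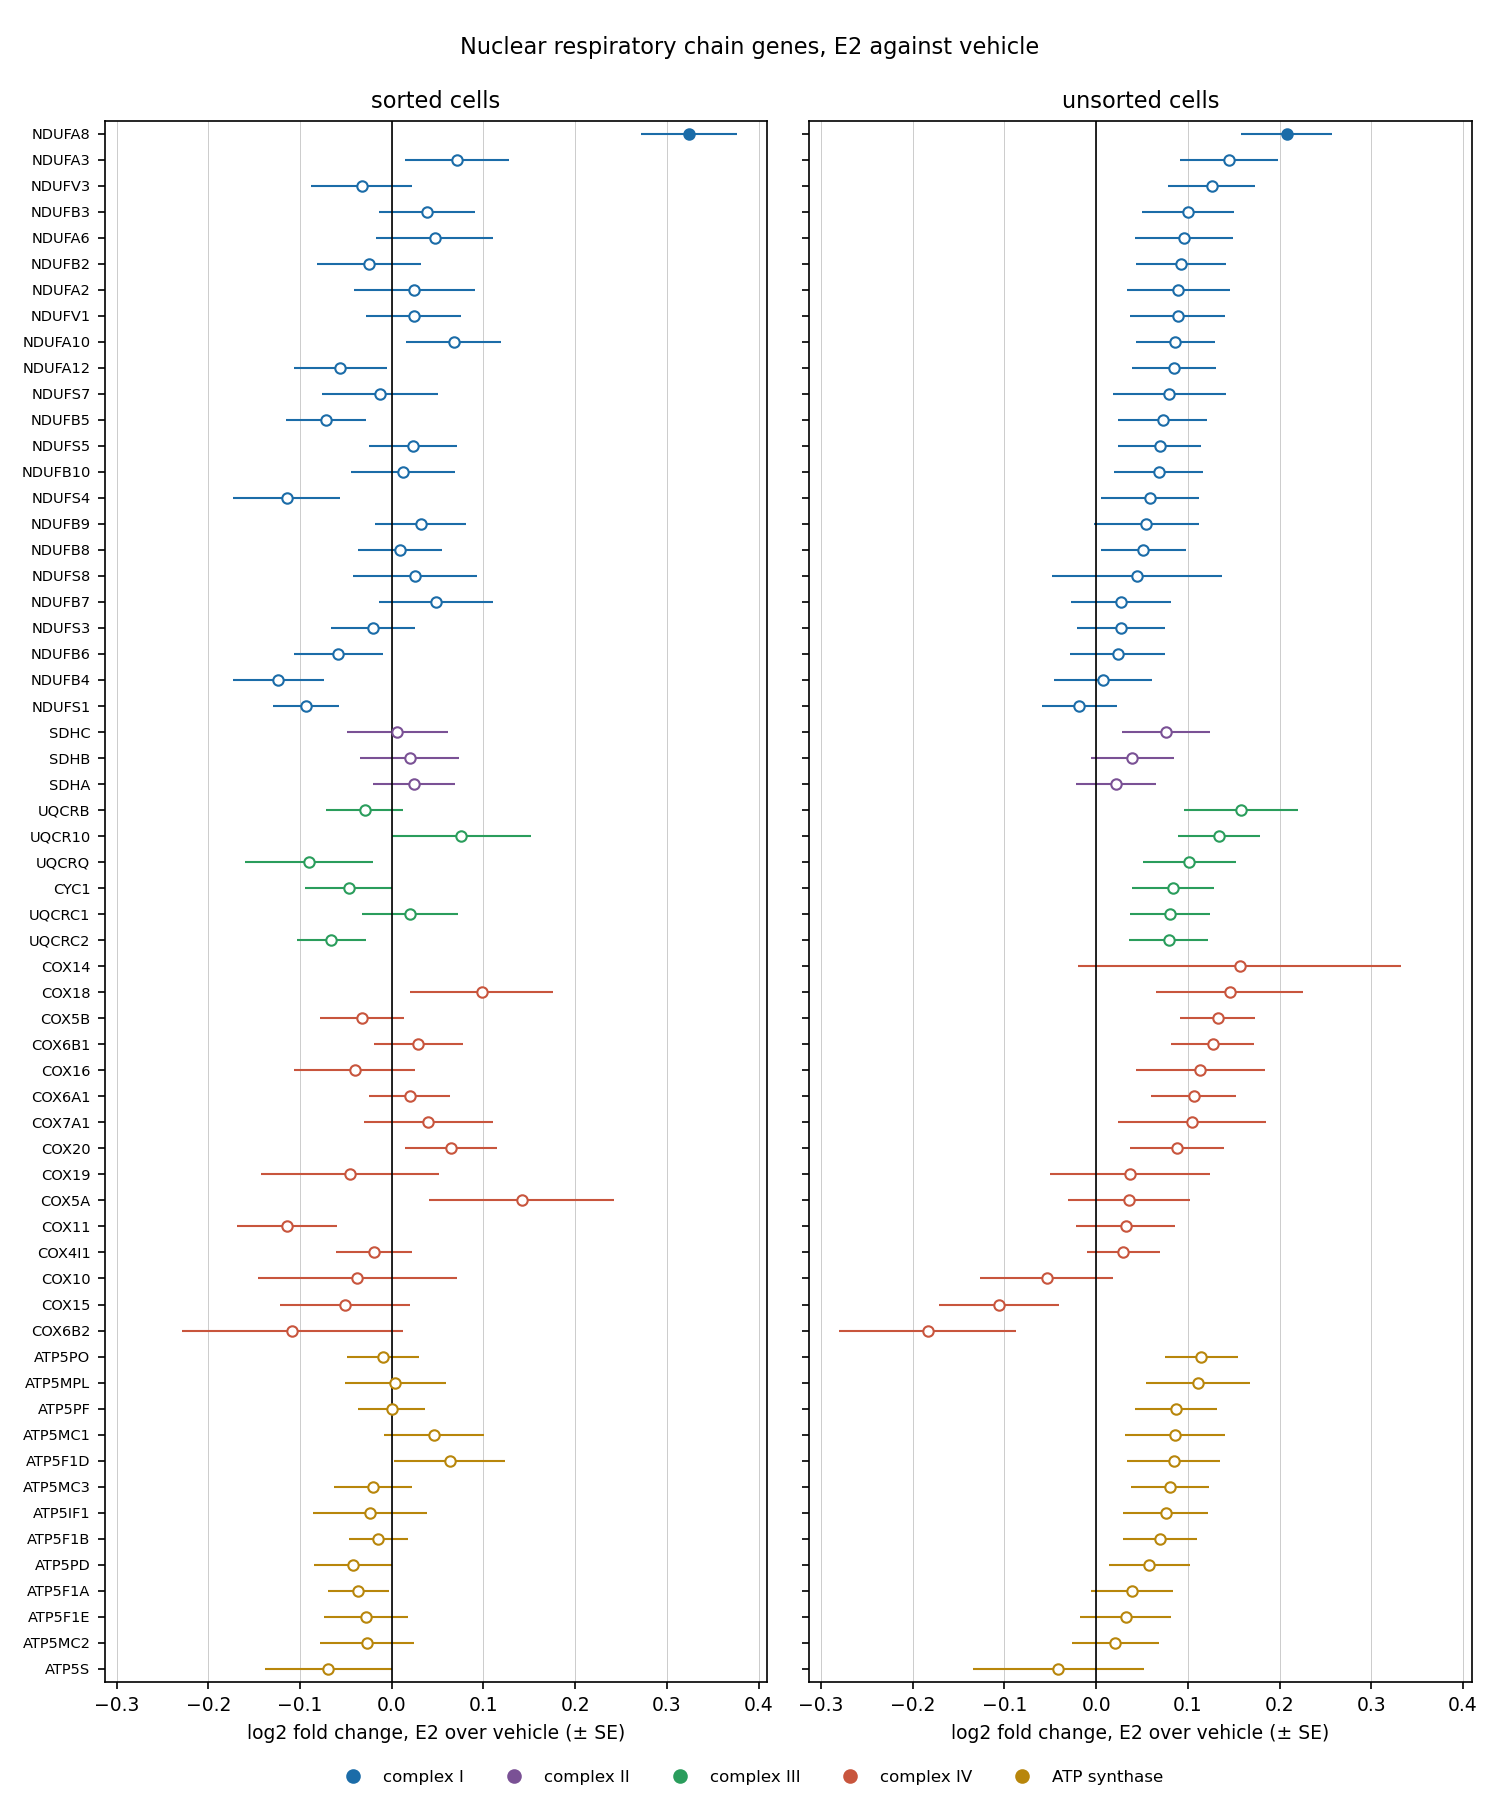
Log2 fold change of E2 over vehicle (± SE, edgeR with the replicate block) for the nuclear genes tested, by complex, in sorted (left, 59 of 60 genes) and unsorted cells (right, 60 of 61 genes). NDUFA8 alone is filled, meaning an adjusted p under 0.05, at 0.32 and 0.21; in unsorted cells 55 of the 60 points drawn lie right of 0.

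The difference of the E2 effects, sorted minus unsorted, was called for 0.463% of 15134 genes. It was called for 0 of 61 nuclear and 0 of 11 mitochondrially encoded genes. This edgeR fit used 1 replicate block shared by sorted and unsorted libraries. In it 0 of either kind passed an unadjusted p under 0.05, and with DESeq2 0 were called. Of the nuclear values 54 of 61 were negative, against 7346 of 15134 over all genes. Their median was -0.08, against 0.005 over all genes, and they too come from the same libraries. With each replicate number blocked within the sorted and within the unsorted libraries, 2.36% of all genes were called and 0 of 72 members. COX5B had the smallest adjusted p among the members (-0.17 ± 0.06, edgeR adjusted p = 0.173). UQCRC2 (-0.15 ± 0.06, adjusted p = 0.217) and UQCRB (-0.19 ± 0.08, adjusted p = 0.263) came next. The unadjusted count given above was made in the shared-block fit only.

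Some other genes of mitochondrial metabolism were called with E2. Calls per list were few, and a list with shares near those of all genes shows nothing of its own. In sorted cells 1 of 25 assembly factors outside the name pattern rose and 0 fell. Of 22 genes of the tricarboxylic acid cycle and pyruvate entry 2 rose and 2 fell, and of 18 biogenesis regulators 2 rose and 1 fell. In sorted cells MRPS16 (0.46 ± 0.06), MRPS18A (0.52 ± 0.07), MRPL37 (0.21 ± 0.05) and MRPS25 (0.34 ± 0.10) rose, 4 of 64 mitochondrial ribosomal protein genes, and 0 fell, where 7.03% of all genes rose and 6.2% fell. BCS1L, the assembly factor that inserts the iron-sulfur protein into complex III, rose by 0.46 ± 0.07 (edgeR adjusted p = 0.000164). MPC1, of the mitochondrial pyruvate carrier, rose by 0.75 ± 0.07 (adjusted p = 3.59e-07), and PDK4, the kinase that inhibits pyruvate dehydrogenase, fell by 0.70 ± 0.04 (adjusted p = 6.44e-10). Among the biogenesis regulators the coactivator gene PPARGC1B rose by 0.83 ± 0.13 (adjusted p = 0.000132) and PPRC1 by 0.17, and SSBP1 fell by 0.20. In unsorted cells MPC1 rose by 0.67 (adjusted p = 3.19e-07), BCS1L by 0.27 (adjusted p = 0.0118) and MRPS16 by 0.27 (adjusted p = 0.00141), and PDK4 (0.10, adjusted p = 0.314) was not called. By list, 3 of 64 mitochondrial ribosomal protein genes, 1 of 27 assembly factors and 1 of 22 tricarboxylic acid cycle and pyruvate entry genes rose. None of these lists had a fall, and of all genes 2.86% rose and 2.37% fell. For PDK4 the difference between sorted and unsorted cells passed its own test (-0.80, adjusted p = 0.00131).

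In the authors' deposited table for the vehicle libraries, 20 members had an adjusted p under 0.05, 15 nuclear and 5 mitochondrially encoded. All 20 were also called here, each with the opposite sign, so that table's fold changes run the other way, unsorted over sorted. The rest of the 32 members called here did not pass in the authors' edgeR table. Their adjusted p there ran from 0.0588 (COX6B1) to 0.377 (UQCRC2). In the authors' deposited tables for E2, 0 members had an adjusted p under 0.05 in sorted or in unsorted cells.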

How the data were processed

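RNA of 24 libraries was measured by RNA-seq. The deposited count tables hold whole-number counts per gene, made with featureCounts 1.5.1 per the submitters' processing notes. For the aligner, genome build, strand setting and treatment of reads with several matches: not given in the sources used here. The authors' deposited comparison tables hold log2 fold changes and adjusted p-values from edgeR, per the file headers, and were used only for the comparison of calls. Vehicle libraries appear in more than 1 table; 12 were compared and 0 values differed.

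Counts were analysed with edgeR 4.0.16 in R 4.3.3 (TMM scaling, filterByExpr, quasi-likelihood test, Benjamini-Hochberg adjustment over all genes tested, threshold 0.05), with the replicate number as a block. The labels do not state a pairing. Libraries were paired by the replicate number that the groups share, and this pairing was checked in the data. Deviations from group means correlated in all 36 same-numbered pairs (r from 0.29 to 0.859). Since replicates 1 to 3 and 4 to 6 differ in depth, the check was repeated, after seeing the data, on deviations from the mean of each set within a group: r was 0.255 to 0.824 in the 36 same-numbered pairs and -0.565 to -0.041 in 72 differently numbered pairs of the same set, which centring on 3 libraries itself pushes below 0. Levels are given as CPM, with each library's size scaled by TMM and no correction for gene length, so genes are not ranked by level. Shares of counts were compared by exact 2-sided sign-flip tests over 6 pairs. Alternatives were the fit without the block, RLE scaling, scaling without the mitochondrially encoded rows, no filter, DESeq2 1.42.0, each replicate number left out, and replicates 1 to 3 or 4 to 6 alone. The edgeR steps were tested on simulated data. Members, lists and tests were chosen with earlier results of these data known. The test of the sort effect between replicate sets, the within-preparation block and the look at genes beside NDUFA8 were added after seeing the data. Named are all mitochondrially encoded members, the 10 largest called rises and falls per comparison, tissue isoform pairs, and up to 4 called genes of other lists; 1 nuclear member is counted but not reported here or drawn. A dispersion shared between libraries of unequal depth limits the precision of genes with few counts.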

Additional observations from a re-analysis of the deposited data

Results flagged for a closer look

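Each group of 6 libraries was examined for a single library far from the others (Dixon's critical value 0.625). Of 152 groups 13 were past that value. The value is set for 1 in 20 among 6 like libraries. These groups mix libraries of unequal depth and share the same 24 libraries, so the 13 cannot be set against that rate.

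The nuclear share of counts was 0.8306% in unsorted E2 replicate 6, with the others at 0.6904 to 0.733%, and 0.7857% in unsorted vehicle replicate 6, with the others at 0.6727 to 0.6978%. The same unsorted E2 replicate 6 was highest for COX6B1 (179.1 CPM, others 130.3 to 146.7 CPM) and SDHC (73.09 CPM, others 60.08 to 63.68 CPM). COX7A1 was highest in replicate 4 of 3 groups: 30.33 CPM in sorted E2 (others 15.17 to 19.15 CPM), 28.78 CPM in sorted vehicle (others 14.68 to 18.74 CPM) and 21.14 CPM in unsorted E2 (others 9.702 to 13.26 CPM).

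CYTB reached 9354 CPM in sorted E2 replicate 2 (others 2782 to 5201 CPM), and ND6 reached 2104 CPM in sorted vehicle replicate 2 (others 892.4 to 1306 CPM). COX10 was lowest in sorted vehicle replicate 2 with 4.953 CPM (others 7.076 to 8.304 CPM), and COX20 in sorted E2 replicate 6 with 51.54 CPM (others 66.27 to 72.74 CPM). SDHC had 51.33 CPM in sorted vehicle replicate 1 (others 39.68 to 42.52 CPM). ND2 had 1.07 CPM in unsorted vehicle replicate 3 (others 0.1594 to 0.3988 CPM), a row of few counts.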

How the results depend on the processing

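No called member changed direction under any alternative run: of the recomputed calls 816 stayed past the threshold and 125 did not. Without the replicate block, 6 nuclear genes rather than 10 were higher in the sort with vehicle. In the sort with E2, 16 nuclear genes rather than 27 were lower and 3 mitochondrially encoded genes rather than 5 higher. Calls over all genes also went down, from 9198 to 7267 with vehicle and from 9555 to 7533 with E2. In the E2 comparisons the ND5 call in sorted cells and the NDUFA8 call in unsorted cells went to 0. Calls over all genes there went from 1896 to 196 and from 790 to 37. In replicates 1 to 3 alone the sort with vehicle gave 6 nuclear genes higher, 9 lower and 9 mitochondrially encoded genes higher, and with E2 3, 15 and 10. Over all genes the sort gave 6973 calls with vehicle and 7294 with E2. The E2 comparisons gave 0 calls for NDUFA8 in either preparation and 0 for ND5. Over all genes they gave 563 calls in sorted and 67 in unsorted cells. In replicates 4 to 6 alone 1 mitochondrially encoded gene was lower in the vehicle sort, where 10423 of all genes were called. In sorted cells with E2 4 were lower, with a median log2 fold change of -0.276 rather than -0.049, where 1277 of all genes were called. The count of mitochondrially encoded genes lower with E2 in sorted cells, 1, was 2 with RLE size factors, 2 with DESeq2 and 4 without a filter. Over all genes these settings gave 1944, 1349 and 2143 calls, against 1896. The count of nuclear genes higher with E2 in unsorted cells, 1, was 2 without a filter, where 1117 genes were called rather than 790. Leaving out each replicate number gave 6 to 13 nuclear genes higher in the vehicle sort, where 7578 to 9246 of all genes were called. With E2 in sorted cells it gave 0 to 4 mitochondrially encoded and 0 to 1 nuclear genes lower, where 1361 to 1893 were called. In unsorted cells it gave 0 to 3 nuclear genes higher, where 451 to 822 were called. Without the 10 most counted genes in the totals, the nuclear share differed by -0.0211 (vehicle sort, exact sign-flip p = 0.531), -0.1028 (E2 sort, p = 0.0625) and -0.0817 (difference of E2 effects, p = 0.0313), and without pairing the E2 difference in unsorted cells, 0.0557, had p = 0.344 by an exact permutation test. The causes of these changes were not tested. Few counts limit the precision of COX14 and ATP8.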
